A study of Tupaia belangeri with 15 samples.

Results

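The 8 features described here are noncoding entries of the tree shrew (TS, Tupaia belangeri) gene annotation whose level in cone photoreceptors, or in several retinal cell classes, differed greatly between infant and senile retinas. They were chosen by name for that difference out of 83605 annotated features, so the infant and senile values below are a description of the choice and carry no test. Of these, 6 are long intergenic noncoding entries (LINC-MAGEE1-4, LINC-NCKAP5-6, LINC-STAU2-1, LINC-WSB1-16, LINC-WSB1-17 and LINC-RPS6-38) and 2 are antisense entries (RPL6-AS-45 and MUC16-AS-3). In cones 4 of them were highest in infancy and 4 in senility. The symbol inside each name is that of a coding gene, and the files give the features no other identifier and no position, so what their numbers stand for is not stated here.

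The study profiled nuclei of whole frozen retinas, without any treatment or transgene, by droplet single-nucleus RNA sequencing (snRNA-seq, 10x Genomics 3′ libraries). It compared 5 retinas at each of 3 postnatal stages, labelled Infancy, Mature and Senile, with as many animals as retinas per stage. Infant and mature animals came from one animal centre and senile animals from another institute, so stage and source cannot be told apart in any value that involves senile retinas. Only nuclear RNA was sampled, and each level below is relative to all RNA molecules counted in that class of that retina.

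Long noncoding RNAs are transcripts that are processed like messenger RNAs but encode no known protein, and many of them stay in the nucleus, where nuclear sequencing detects them well. An antisense RNA is copied from the strand opposite to a gene. Cones are the photoreceptors of daylight and colour vision and the main photoreceptors of the TS retina, and they come as L-cones with a long-wave opsin and S-cones with a short-wave opsin. They pass their signal to bipolar cells (BCs) and horizontal cells (HCs), amacrine cells (ACs) modulate it, and retinal ganglion cells (RGCs) send it to the brain, while Müller cells are the radial glia of the tissue.

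The 15 libraries held 13429873 to 58734300 unique molecular identifiers (UMIs, one per captured RNA molecule) in 4269 to 9856 barcodes, and any pair of libraries shared at most 30 barcodes. No cell annotation was used, so nuclei were assigned to classes by marker genes. The cone gate, which required RNA of at least 2 of OPN1LW, OPN1SW, ARR3, PDE6C, GNGT2 and CNGB3 above their library share, took 14783 of 119765 nuclei, between 101 (Mature 5) and 2342 (Mature 1) per retina. Markers kept out of the gate followed it: the cone transducin gene GNAT2 averaged 1015 CPM (UMIs per 1000000 UMIs of that class in that retina) in gated cones against 22.3 in ACs and 29.6 in BCs, and the cone kinase gene GRK7 427 CPM against 5.87 and 8.37. GNGT2, CNGB3 and the held-out CNGA3 had 0 UMIs in all 15 libraries, so the gate rested on the opsins, ARR3 and PDE6C. Cone marker levels overlapped between stages, with GNAT2 at 732 to 1434 CPM in infant, 943 to 1361 in mature and 588 to 1303 in senile cones.

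LINC-MAGEE1-4 was the most abundant of the 8 in infant cones. It stood at 429.7, 479, 346, 389.7 and 639 CPM in cones of the 5 infant retinas. In mature cones it was 129, 239.6, 120.4, 88.1 and 27.6 CPM, and in senile cones 33.8, 16.1, 48.1, 54.1 and 31.6 CPM. Every infant value was thus above every mature and every senile one, while mature and senile values overlapped because of Mature 5. The stage means were 457 ± 113, 121 ± 77.3 and 36.7 ± 14.9 CPM (SD, n = 5), and over pooled UMIs infant cones held 13.3 times the senile level (95% counting interval 12.3 to 14.4). Counting intervals here cover counting error only.

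LINC-NCKAP5-6 had a similar order in cones. Infant retinas gave 116, 87.0, 80.5, 40.1 and 21.4 CPM, against 3.16, 2.72, 7.45, 5.49 and 13.0 CPM in mature and 1.49, 1.08, 3.13, 5.28 and 11.3 CPM in senile retinas. The lowest infant retina was still above the highest of the other 10. The spread among infant retinas was wide, at 69.0 ± 38.0 CPM, and the mature and senile groups were of like size, at 6.36 ± 4.16 and 4.46 ± 4.17 CPM (SD, n = 5). The 3 infant libraries of Cell Ranger 6.1.2, the earlier version of the counting program, averaged 94.5 CPM and the 2 infant libraries of version 7.0.1 30.8 CPM. Infant values were above senile ones within each version, by 5.39 (6.1.2) and 2.07 (7.0.1) in log2(CPM + 1).

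RPL6-AS-45, the antisense entry that carries the name of a large-subunit ribosomal protein gene, was detected mainly in cones. Its infant values of 68.4, 63.1, 65.9, 39.6 and 49.4 CPM all lay above the senile values of 18.4, 10.5, 8.21, 13.6 and 12.04 CPM. Mature cones spread over both ranges, at 6.54, 53.8, 22.2, 7.75 and 23.5 CPM. Mature 2 lay within the infant range and Mature 1 and 4 lay below all senile retinas.

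LINC-STAU2-1 was the only one of the 8 whose infant and senile cones overlapped. Infant cones had 29.9, 24.2, 37.5, 19.0 and 16.5 CPM, mature cones 14.3, 13.6, 8.96, 18.7 and 4.06 CPM, and senile cones 16.5, 14.3, 6.25, 12.3 and 19.9 CPM. Its place in the set came from other classes, where its infant mean was the highest of the 3 stages in 9 of 9 classes, cones included. Infant retinas were above all senile ones in BCs (31.1 to 36.7 against 8.27 to 20.8 CPM), RGCs (28.2 to 44.6 against 8.67 to 27.0 CPM) and Müller cells (47.2 to 64.9 against 11.4 to 37.4 CPM). Among features with enough counts, 0.463% in BCs, 0.159% in RGCs and 0.413% in Müller cells showed senile retinas entirely below infant ones, and since that contrast chose the feature, nothing is read from the comparison.

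The other 4 features were near 0 in infant cones. LINC-WSB1-16 had 0, 0.58, 1.25, 3.71 and 2.68 CPM in infant, 67.7, 27.0, 9.93, 68.8 and 38.1 CPM in mature and 59.7, 21.8, 80.5, 77.9 and 129 CPM in senile cones. Mature and senile cones therefore overlapped, and both groups lay wholly above infant cones. Pooled infant cones held 45 UMIs against 1491 in senile cones, a ratio of 36.0 after scaling to class totals (95% counting interval 26.8 to 49.5). Of the 45 infant UMIs 29 came from Infancy 4, and without that retina the fitted senile minus infant log2 fold change was 5.84, against 5.17 with it.

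LINC-WSB1-17 followed the same order at a lower level, with 0.31, 0, 0, 0.77 and 0 CPM in infant, 9.49, 3.86, 0.76, 12.6 and 3.24 CPM in mature and 13.6, 5.92, 14.5, 12.3 and 33.7 CPM in senile cones. Mature 3 was just below the highest infant retina, Infancy 4, so those groups overlapped. Without Infancy 4 the fitted senile minus infant log2 fold change was 7.19, against 5.52 with it. The ratio of LINC-WSB1-16 to LINC-WSB1-17 UMIs ran from 3.68 to 13.1 over the 11 cone samples with UMIs of both, and from 2.52 to 11.8 over 15 AC samples. Whether both entries count parts of 1 transcript cannot be read from the files, since neither has a position.

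LINC-RPS6-38 was at 0.31, 0.86, 0, 0.13 and 0.24 CPM in infant cones. Mature cones had 8.54, 20.2, 11.4, 14.5 and 7.30 CPM, and senile cones 25.1, 35.3, 25.4, 16.7 and 33.9 CPM. MUC16-AS-3 was at 0, 0.58, 0, 0 and 0.24 CPM in infant, 22.3, 10.2, 4.21, 10.3 and 13.8 CPM in mature and 16.9, 18.6, 25.4, 18.5 and 22.8 CPM in senile cones. For both features every mature and senile retina was above every infant one and the mature and senile ranges overlapped. The infant levels rest on 6 UMIs of LINC-RPS6-38 and 3 UMIs of MUC16-AS-3 in all, so the senile to infant ratios of 100.5 and 142 have wide counting intervals, 45.9 to 275 and 48.2 to 691.

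**Figure D1:**
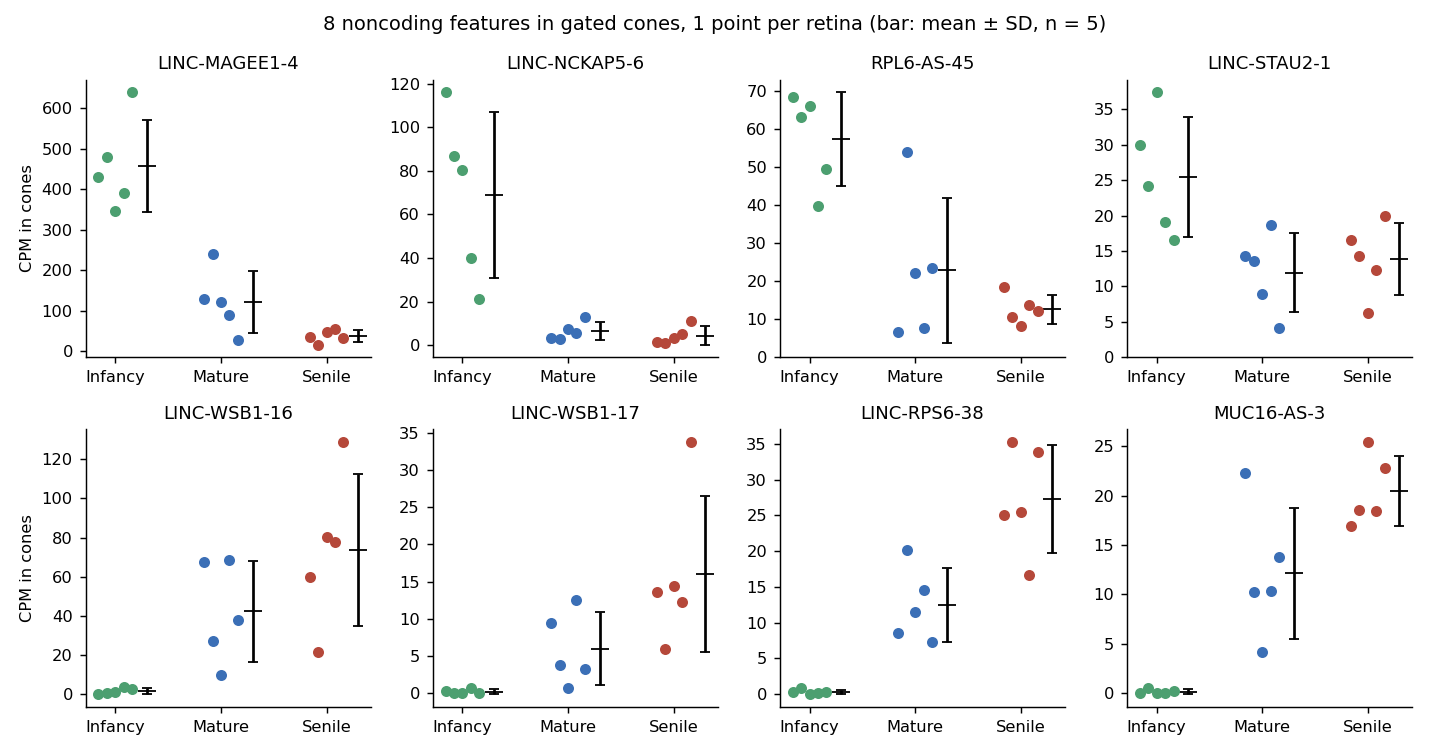
Level of each of the 8 features in marker-gated cones, in CPM on a linear axis, with 1 point per retina and the mean ± SD (n = 5) beside each stage. In the upper row the infant mean is highest, with overlap of infant and senile retinas only for LINC-STAU2-1 and of infant and mature retinas for RPL6-AS-45 and LINC-STAU2-1. In the lower row infant retinas sit at or near 0, none above 3.71 CPM.

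In cones 7 of 8 features had no overlap between infant and senile retinas, 4 higher and 3 lower in senile retinas, beside 2.89% of 15857 features with enough UMIs (2.38% higher and 0.511% lower). By edgeR's quasi-likelihood test with an adjusted p under 0.05, 7 of 8 were called in that contrast (4 higher and 3 lower in senile cones), beside 1.31% of 14917 features tested (1.15% higher and 0.168% lower). The call of RPL6-AS-45 was lost when Senile 2, Senile 3 or Senile 5 was left out, which gave 6 of 8. As this contrast chose the features, nothing is read from either count. The senile minus infant log2 fold changes of the fit were -3.75 ± 0.44 for LINC-MAGEE1-4, -4.01 ± 0.62 for LINC-NCKAP5-6, -2.27 ± 0.47 for RPL6-AS-45 and -0.94 ± 0.35 for LINC-STAU2-1 (± SE). Those of LINC-WSB1-16, LINC-WSB1-17, LINC-RPS6-38 and MUC16-AS-3 were 5.17 ± 0.68, 5.52 ± 0.86, 6.33 ± 0.49 and 6.78 ± 0.63, and for features near 0 in infancy such values depend on the small count the program adds and are no bound. Leaving out 1 retina moved LINC-NCKAP5-6 to -4.88 (without Senile 5), LINC-RPS6-38 to 7.03 and MUC16-AS-3 to 7.83 (both without Infancy 2).

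The mature retinas took no part in choosing the features, although the infant retinas they are set against did. Between mature and infant cones 5 of 8 features did not overlap beside 2.60% of all features with enough UMIs. LINC-MAGEE1-4 and LINC-NCKAP5-6 were lower in mature cones (0.750% of all features were) and LINC-WSB1-16, LINC-RPS6-38 and MUC16-AS-3 higher (1.85%). The edgeR fit called 6 of 8 there beside 1.11% of all features tested, namely those 5 and LINC-WSB1-17 (4 higher and 2 lower in mature cones, beside 0.992% and 0.114%), and not LINC-STAU2-1 or RPL6-AS-45. The infant values that chose the features enter this contrast, and the 4 higher ones passed the filter on low counts through the mature and senile cones, so nothing is read from these counts. Leaving out single infant or mature retinas gave 4 to 7 called, with 4 when any of Infancy 1, Infancy 2, Infancy 5, Mature 1 or Mature 4 was left out, and the calls lost were those of LINC-MAGEE1-4 and LINC-WSB1-17. Between senile and mature cones none of the 8 was separated (0.858% of all features were), and none was called by edgeR, which called 0.00% of all features, with 865 at an unadjusted p under 0.05, while DESeq2 called 11 features. LINC-MAGEE1-4 was among the 11, and among 7 called by edgeR without a filter on low counts. The senile values that chose the features enter the senile to mature contrast, so nothing is read from these calls. The mature minus infant and senile minus mature log2 fold changes of LINC-MAGEE1-4 were -1.91 ± 0.41 and -1.84 ± 0.42, so its level in mature cones stood midway, whereas for LINC-NCKAP5-6 they were -3.63 ± 0.61 and -0.39 ± 0.63 and for MUC16-AS-3 6.11 ± 0.64 and 0.67 ± 0.39 (± SE). These contrasts share the mature retinas and are shown side by side only.

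Per the file headers, the counting program ran in version 6.1.2 for the libraries numbered 1 and 2 of each stage and for Infancy 3, and in version 7.0.1 for the remaining 8. The libraries of 6.1.2 had median depths of 1461 to 3068 UMIs per barcode and those of 7.0.1 2268 to 5611. Version, depth and any other difference between these sets of libraries cannot be told apart, wherever values are given by version. In log2(CPM + 1), the senile minus infant differences in cones were -4.01 (6.1.2) and -3.498 (7.0.1) for LINC-MAGEE1-4, -2.11 and -1.89 for RPL6-AS-45, and -0.94 and -0.44 for LINC-STAU2-1. They were 4.70 and 4.53 for LINC-WSB1-16, 3.29 and 3.94 for LINC-WSB1-17, 4.49 and 4.47 for LINC-RPS6-38, and 3.97 and 4.37 for MUC16-AS-3. Each version held 2 or 3 retinas per stage here, the ones that chose the features, so these values are a description.

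Across cell classes, LINC-MAGEE1-4 was highest in cones in infancy and in ACs at both later stages. Its infant mean was the highest of the 3 stages in 7 of 9 classes, and it ran downward through all 3 stages in 4 of 9, among them Müller cells with 64.8 ± 17.0, 49.6 ± 20.2 and 38.0 ± 15.7 CPM (SD, n = 5). In ACs it stood at 315 to 455 CPM in infant, 233 to 421 in mature and 200.3 to 505 in senile retinas, with means of 353 ± 57.5, 326 ± 71.3 and 322 ± 112 CPM (SD, n = 5). Infant cones exceeded the ACs of the same retina in 5 of 5 retinas, mature cones in 1 of 5 and senile cones in 0 of 5. By mean level cones ranked first of 9 classes in infancy, second at the mature stage and ninth in senility. Senile cones were then at the level of senile BCs, which had 19.1 to 82.7 CPM.

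The share of nuclei with a LINC-MAGEE1-4 UMI gave the same order. It averaged 51.7% of infant, 19.0% of mature and 5.78% of senile cones, with median depths of 1595 to 11634 UMIs per cone nucleus. Among nuclei of at least 1000 UMIs, each thinned to 1000, it was 29.5%, 8.09% and 2.68% in cones and 27.5%, 27.0% and 25.1% in ACs. Nuclei with fewer UMIs were left out of all thinned shares. BCs, where the level was low and the median depth 818.5 to 4941 UMIs, had 2.33%, 1.79% and 3.23%. The thinned share in senile cones was thus within the range of 0.96% to 5.54% seen in senile BCs. Where the counts in senile cones came from was not tested. One infant cone nucleus held as many as 33 UMIs. The 7 AC markers summed to 147 to 252 CPM in infant, 112 to 325 in mature and 143 to 299 in senile cones. They include gate markers, which the gate itself keeps low in cones, so nothing is read from these sums. The held-out AC markers GRM8 and PAX6 averaged 96.0 and 41.1 CPM in infant, 107 and 47.4 in mature and 110 and 51.6 in senile cones. Whether AC RNA contributed to the cone values was not tested.

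**Figure D2:**
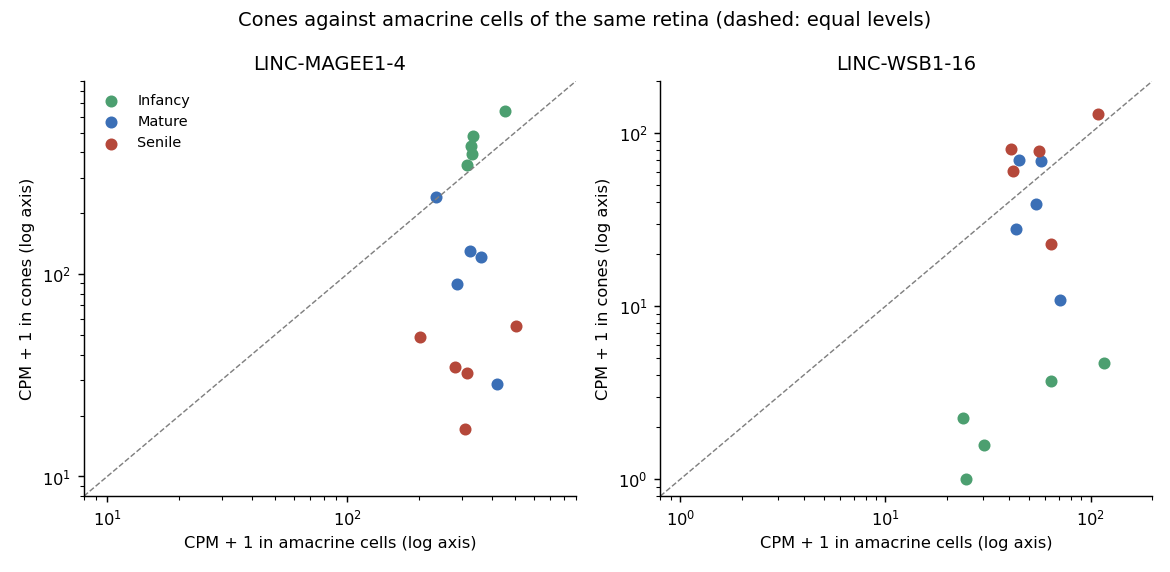
LINC-MAGEE1-4 (left) and LINC-WSB1-16 (right) in cones against ACs of the same retina, as CPM + 1 on log axes, with 1 point per retina and a dashed line of equal levels. For LINC-MAGEE1-4 the 5 infant retinas lie above the line and the 5 senile ones below it at AC levels of 200.3 to 505 CPM, and for LINC-WSB1-16 the 5 infant retinas lie below the line while 4 of 5 senile ones lie above it.

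The LINC-WSB1 pair showed the reverse layout. ACs held LINC-WSB1-16 at every stage, with 23.0 to 115 CPM in infant, 42.5 to 70.04 in mature and 39.8 to 107.5 in senile retinas. The infant values were 23.0 to 29.3 CPM in version 6.1.2 and 63.4 and 115 CPM in 7.0.1, while mature and senile ACs had 40.6 to 63.3 CPM in 6.1.2 and 39.8 to 107.5 CPM in 7.0.1. Infant cones were below the ACs of their own retina in 5 of 5 retinas, and senile cones were above them in 4 of 5. BCs stayed low throughout, at 9.27 ± 4.78, 8.16 ± 1.61 and 14.9 ± 5.05 CPM (SD, n = 5), and infant cones were lower even than the BCs of their retina in 5 of 5 retinas. Cones ranked ninth of 9 classes for both LINC-WSB1 features in infancy and first for both in senility. Of the nuclei thinned to 1000 UMIs, 0.08% of infant, 4.41% of mature and 6.38% of senile cones had a LINC-WSB1-16 UMI, against 3.52%, 4.22% and 4.55% of ACs and 0.15%, 0.23% and 1.03% of Müller cells. Without thinning the cone shares were 1.05%, 17.4% and 22.4%.

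LINC-RPS6-38 and MUC16-AS-3 were not restricted to cones in any stage. The mean of LINC-RPS6-38 ran upward from infancy through maturity to senility in 9 of 9 classes and that of MUC16-AS-3 in 8 of 9, the exception being astrocytes. In rods the LINC-RPS6-38 order rested on 3, 0, 3, 1 and 0 UMIs in Mature 1 to 5 and 3, 1, 0 and 0 UMIs in Senile 2 to 5. Infant and senile levels chose both features, so nothing is read from these class counts. Müller cells and RGCs held more LINC-RPS6-38 than cones: senile Müller cells had 37.6 to 98.7 CPM and senile RGCs 36.3 to 77.3 CPM, against 16.7 to 35.3 in senile cones. It was already detected in infant Müller cells, at 0.83 to 7.77 CPM, and in infant RGCs, at 0 to 6.70 CPM.

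Both features kept senile retinas above infant ones in each of BCs, ACs, RGCs and Müller cells, where 2.03%, 1.60%, 2.04% and 1.53% of all features with enough UMIs did, a contrast that was part of the choice. In BCs, ACs and Müller cells they also kept senile above mature retinas (0.668%, 0.690% and 0.421% of all features), a contrast that shares the senile retinas with the choice. LINC-WSB1-17 also did so in ACs, with 4.71 to 8.13 CPM in mature and 8.501 to 27.0 CPM in senile retinas, but its infant range there, 4.69 to 30.8 CPM, covered both. In RGCs none of the 8 separated these stages (0.587%). Mature retinas lay above infant ones for LINC-RPS6-38 in BCs, ACs, RGCs and Müller cells (1.52%, 1.30%, 1.68% and 1.47% of all features) and for MUC16-AS-3 in BCs and ACs. LINC-STAU2-1 was the counterpart, lower in all mature than in all infant retinas in BCs (0.802%) and Müller cells (0.398%). In Müller cells MUC16-AS-3 had 0 to 2.24 CPM in mature and 8.36 to 16.1 CPM in senile retinas, whereas in cones it had 4.21 to 22.3 CPM at the mature stage. The MUC16-AS-3 rank of cones was first of 9 in mature retinas and second in senile ones.

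LINC-NCKAP5-6 was also found in Müller cells, with 2.33 to 16.4 CPM in infant, 1.03 to 11.9 in mature and 0 to 10.1 in senile retinas. These ranges overlapped, but they differed between the libraries of Cell Ranger 6.1.2 and those of 7.0.1. Within version 6.1.2 it had 2.33 to 6.19 CPM in infant, 1.03 to 2.24 in mature and 0 to 1.50 in senile retinas, and within 7.0.1 16.1 to 16.4, 4.41 to 11.9 and 5.01 to 10.1 CPM. In 6.1.2 these are few counts, 3 to 8 UMIs per infant and 0 to 2 UMIs per mature or senile retina. Over all libraries the level in Müller cells was 13.1%, 97.3% and 109% of that in cones at the 3 stages, where GNAT2, a cone gene, was at 2.65%, 2.06% and 6.07%. In infant BCs, ACs and RGCs it was at 1.32%, 1.42% and 1.58% of its cone level. GNAT2 was at 1.94%, 1.48% and 1.36% there. Where the LINC-NCKAP5-6 counts in those classes came from was not tested, and nothing is read from them. RPL6-AS-45 was likewise at 0.688%, 0.927% and 1.57% of its cone level in infant BCs, ACs and RGCs, and it ranked first in cones at all 3 stages. In senile retinas GNAT2 reached 5.03% of its cone level in BCs and 3.75% in ACs, above its infant shares, and the cause was not tested.

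The scarcer classes gave few UMIs of most features. LINC-WSB1-16 in microglia had 0 to 78.1 CPM in infant, 11.02 to 49.0 in mature and 0 to 60.9 in senile retinas, and 98 of its 128 infant UMIs came from Infancy 4. LINC-STAU2-1 in microglia, the resident macrophages, had 39.8 to 74.4 CPM in infant and 0 to 27.9 CPM in senile retinas, with 96 and 15 UMIs in all. In HCs it had 25.5 to 60.7 CPM in infant, 17.3 to 43.8 in mature and 14.7 to 44.1 in senile retinas, and these ranges overlapped. LINC-MAGEE1-4 in rods, at 32.9 to 99.6 CPM in infant, 26.8 to 77.2 in mature and 56.6 to 142 in 4 senile retinas, did not show the order seen in cones. MUC16-AS-3 had 0 UMIs in infant rods, HCs and microglia and 6, 21 and 8 UMIs in the senile ones. LINC-RPS6-38 in astrocytes, the glia of the nerve fibre layer, had 2, 16 and 23 UMIs over the 3 stages, which came to 0 to 7.58, 4.88 to 32.2 and 22.6 to 60.5 CPM.

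**Figure D3:**
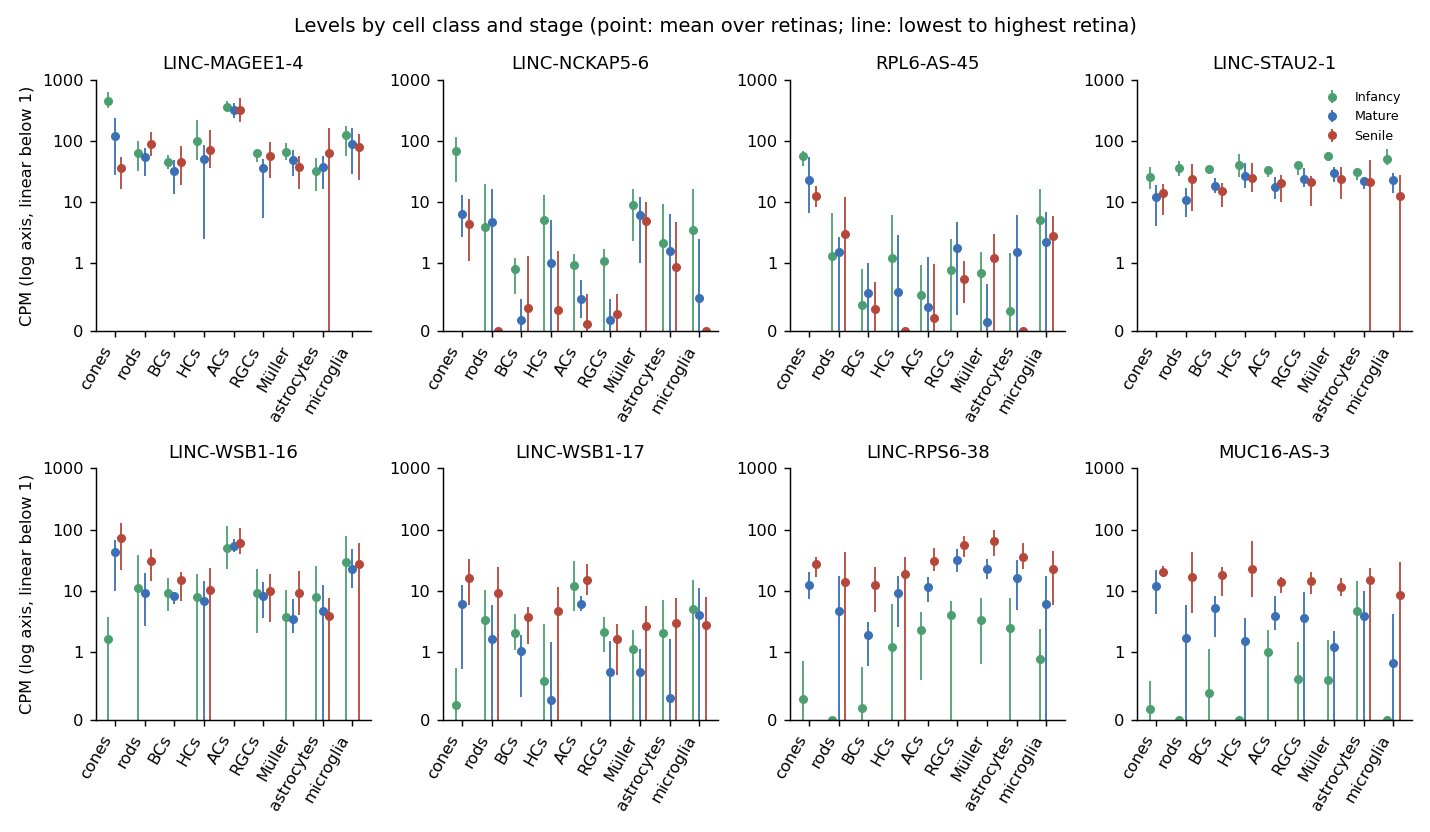
Mean level of each feature in 9 marker-gated classes at each stage, in CPM on a log axis that is linear below 1, with lines from the lowest to the highest retina (n = 5, but 4 for senile rods). Cones stand out for LINC-NCKAP5-6 and RPL6-AS-45 in infancy, while cones and ACs both hold LINC-MAGEE1-4 then (means of 457 and 353 CPM). ACs hold LINC-MAGEE1-4 and LINC-WSB1-16 at all stages. The mean of LINC-RPS6-38 is higher in senility than in infancy in 9 of 9 classes, in rods on few UMIs.

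Differences between classes within the 5 mature retinas did not enter the choice and were tested with the retina as a block, though features picked for their behaviour in cones had to be detectable there. A call is no rarity in such contrasts: edgeR's quasi-likelihood test called 63.1% of 13747 features between cones and BCs, 68.4% between cones and ACs, 68.0% for RGCs, 67.5% for Müller cells and 35.2% for rods. The filter on low counts kept 4 of the 8 features. Against BCs, LINC-WSB1-16 was higher in cones by 2.37 ± 0.29 in log2 (± SE, edgeR adjusted p = 1.2e-09) and LINC-MAGEE1-4 by 2.09 ± 0.28 (adjusted p = 9.8e-09). LINC-RPS6-38 was higher in cones by 2.87 ± 0.27, but it had 5, 9, 15, 8 and 6 UMIs in mature BCs and passed the filter through other classes. Its value against BCs is thus a description with no test. LINC-STAU2-1 was lower in cones, at -0.43 ± 0.15 (adjusted p = 0.013), a call that was lost under a stricter gate (adjusted p = 0.15).

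Against ACs only LINC-MAGEE1-4 differed, with -1.38 ± 0.26 (edgeR adjusted p = 1.1e-05), lower in cones in 4 of 5 mature retinas. LINC-WSB1-16 had -0.29 ± 0.25, LINC-RPS6-38 0.27 ± 0.22 and LINC-STAU2-1 -0.30 ± 0.16, none of which passed the test in that fit. Against RGCs, LINC-WSB1-16 (2.19 ± 0.33) and LINC-MAGEE1-4 (1.86 ± 0.30) were higher and LINC-RPS6-38 (-1.24 ± 0.21) and LINC-STAU2-1 (-0.72 ± 0.16) lower in cones, with edgeR adjusted p between 1.1e-07 and 1.7e-04.

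Müller cells gave the same split, with 1.49 ± 0.29 for LINC-MAGEE1-4 against -0.83 ± 0.22 for LINC-RPS6-38 and -1.06 ± 0.16 for LINC-STAU2-1 (± SE, edgeR adjusted p of 8.1e-04 at most). LINC-WSB1-16 had 3.41 ± 0.39, but only 2, 2, 21, 11 and 4 UMIs in mature Müller cells, so that value is a description with no test. Rods are the other photoreceptors, and few were gated. Cones exceeded them in LINC-MAGEE1-4 (1.44 ± 0.37, edgeR adjusted p = 0.0019) and in LINC-WSB1-16 (2.31 ± 0.51). The LINC-MAGEE1-4 call was lost without Mature 2 (0.95, adjusted p = 0.053). LINC-WSB1-16 had 1 to 8 UMIs per rod sum, so its value against rods is a description with no test. Its cone and rod levels in Mature 3 were alike, at 9.93 and 9.94 CPM. LINC-RPS6-38 had 3, 0, 3, 1 and 0 UMIs in mature rods and passed the filter through other classes. Its value of 1.93 ± 0.51 (1.58 to 2.63 when 1 mature retina was left out) is thus a description with no test. In Mature 1 it was higher in rods, at 17.4 CPM against 8.54 in cones. LINC-STAU2-1 did not pass the test against rods, at 0.38 ± 0.29 (edgeR adjusted p = 0.33).

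**Figure D4:**
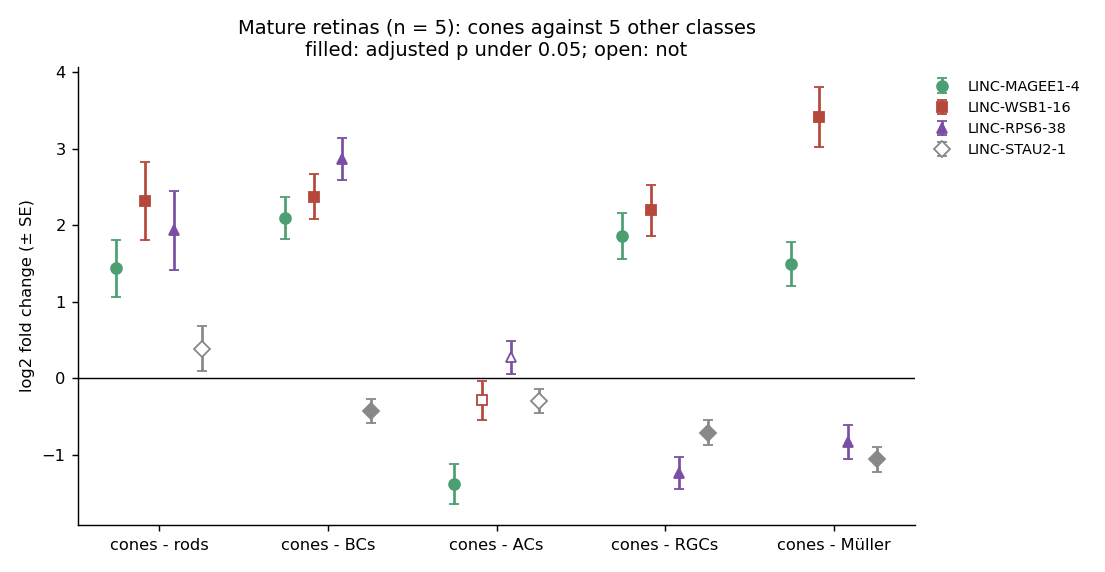
Log2 fold change (± SE, edgeR with the retina as a block, n = 5 mature retinas) of cones against 5 other classes for the 4 features that passed the filter on low counts, with filled symbols where the adjusted p was under 0.05. LINC-MAGEE1-4 and LINC-WSB1-16 are above 0 against 4 of the 5 classes and not against ACs, and LINC-RPS6-38 is above 0 against BCs and rods and below 0 against RGCs and Müller cells. The LINC-RPS6-38 values against BCs and rods are descriptions with no test, as those classes held few of its UMIs. The same holds for LINC-WSB1-16 against rods and Müller cells.

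The 4 features that the filter removed did not reach its level in enough of the sums of all classes. Not all were confined to cones: LINC-WSB1-17 had 13 to 31 UMIs per mature AC sum and MUC16-AS-3 12 to 37 per mature BC sum. The class values of these 4 come from a fit without the filter, with no call made. RPL6-AS-45 had 4.95 ± 0.33 against BCs, 5.68 ± 0.37 against ACs, 4.39 ± 0.36 against RGCs and 6.37 ± 0.48 against Müller cells (log2 fold change ± SE). LINC-NCKAP5-6 had 5.05 ± 0.46 against BCs, 0.04 ± 0.25 against Müller cells and 0.43 ± 0.44 against rods, where 13 of its 14 mature UMIs came from Mature 3. MUC16-AS-3 had 1.08 ± 0.25 against BCs, 1.64 ± 0.26 against ACs and 3.502 ± 0.40 against Müller cells, and LINC-WSB1-17 2.24 ± 0.34 against BCs and -0.14 ± 0.26 against ACs, the same layout as LINC-WSB1-16.

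Among the cones themselves, L-cones and S-cones of the mature retinas were compared with the retina as a block. The cones split into 12264 L-cones and 374 S-cones by opsin, and Mature 5, with 2 S-cones, was left out, so 4 retinas entered the fit. LINC-MAGEE1-4 was higher in S-cones, at 217, 479, 302 and 123 CPM against 126, 228, 113 and 83.8 CPM in L-cones of Mature 1 to 4. The log2 fold change of L-cones over S-cones was -0.95 ± 0.15 (SE, edgeR adjusted p = 1.6e-07), higher in S-cones in 4 of 4 retinas, and 6.82% of 10318 features were called. The S-cone values rest on 42, 52, 85 and 13 UMIs. Without the retina block the contrast was not called (-1.14, edgeR adjusted p = 0.43).

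RPL6-AS-45 lay on the other side, with 59, 213, 196 and 22 UMIs in L-cones and 1 UMI in all S-cones of these retinas. It passed the filter on low counts only through L-cones, so its values are a description with no test. The pooled level in L-cones was 14.3 times that in S-cones (95% counting interval 2.56 to 567). Of the other features, 5 were tested and none was called, but with 3 to 22 UMIs of each in all S-cones a difference was hardly detectable at this depth, and LINC-NCKAP5-6 was under the filter. Infant and senile retinas chose the features, but not by cone type. There S-cones exceeded L-cones in LINC-MAGEE1-4 in 5 of 5 infant and 4 of 5 senile retinas. The senile S-cone values rest on 8, 1, 16, 7 and 3 UMIs. RPL6-AS-45 had 10 UMIs in S-cones of all 14 retinas and was lower there than in L-cones in 14 of 14. Of its 10 UMIs 5 came from Infancy 1, where S-cones had 61.3 CPM and L-cones 66.6 CPM.

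**Figure D5:**
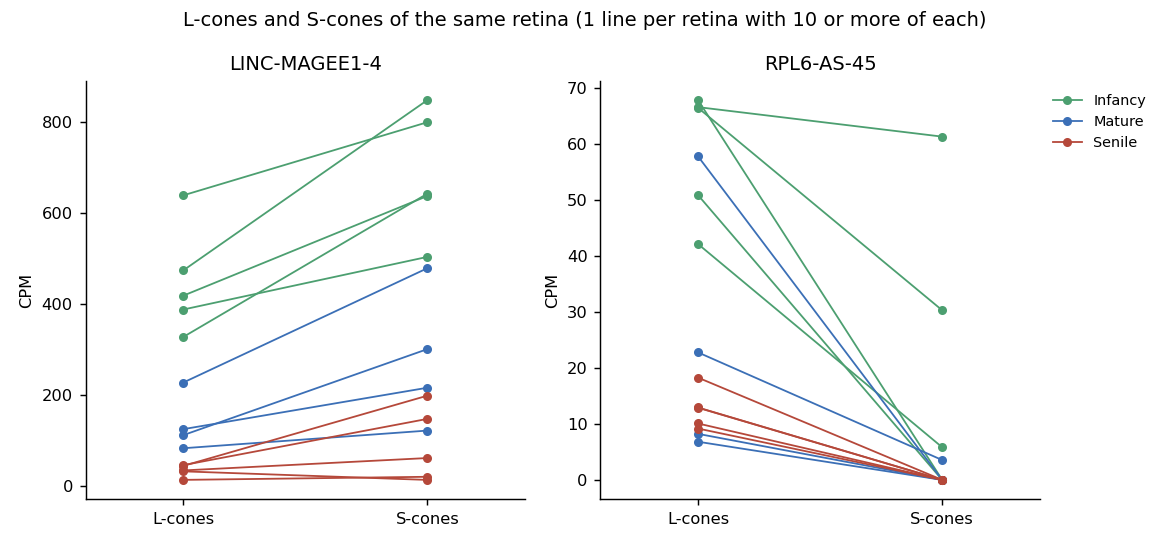
LINC-MAGEE1-4 (left) and RPL6-AS-45 (right) in L-cones and S-cones of the same retina, in CPM on a linear axis, with 1 line per retina for the 14 retinas that had at least 10 of each. LINC-MAGEE1-4 is higher in S-cones in 13 of 14 retinas, with 35 UMIs in all senile S-cones. RPL6-AS-45, with 10 UMIs in all S-cones, is at or near 0 there at the mature and senile stages.

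The coding genes whose symbols the features carry were examined in cones. MUC16, which encodes a large membrane-bound mucin, had 0, 0, 0, 0.13 and 0.49 CPM in infant, 4.54, 1.59, 0.97, 2.58 and 1.62 CPM in mature and 3.90, 4.31, 6.64, 3.52 and 9.48 CPM in senile cones. Every mature and senile retina was above every infant one. The totals were 3, 69 and 114 UMIs, and as MUC16 passed the filter on low counts through the mature and senile cones these values are a description with no test. The sources used here do not state how strand entered the counting, so reads of MUC16 and of its antisense entry MUC16-AS-3 may not be separable.

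STAU2, an RNA-binding protein gene with a role in RNA transport in neurons, differed little, at 219 ± 19.2, 211 ± 17.7 and 207 ± 14.9 CPM over the 3 stages (SD, n = 5). NCKAP5 was abundant, at 1333 ± 187, 1021 ± 160 and 1102 ± 190.4 CPM, and its senile to infant log2 fold change of -0.37 ± 0.15 did not pass the test (edgeR adjusted p = 0.48) while LINC-NCKAP5-6 differed by -4.01. The WSB1 copy WSB1li1, for a substrate receptor of a ubiquitin ligase, had 41.1 ± 9.25, 45.6 ± 14.3 and 51.1 ± 10.7 CPM and was not called (adjusted p = 1.00). MAGEE1 had 117 UMIs in all cones, too few to be tested. Of the listed copies of the ribosomal protein genes RPS6 and RPL6, 3 and 16 were tested and none was called in any stage contrast, where near-identical copies may share reads.

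Other features with the same name stems were few in cones: of 146, 13 had enough UMIs to be tested, and 3 were called by edgeR between senile and infant cones, 1 higher and 2 lower, beside 1.31% of all features tested (1.15% higher and 0.168% lower). The 3 passed the filter on low counts through the stages where they were high, so their values are a description with no test. LINC-MAGEE1-2 had 11.9, 3.84 and 1.12 CPM over the 3 stages, LINC-NCKAP5-5 had 7.76, 1.64 and 1.38 CPM, and LINC-RPS6-12 had 0.13, 5.16 and 5.27 CPM. LINC-WSB1-12, at 100.5, 66.3 and 65.8 CPM, and all 7 tested RPL6-AS entries did not pass the test. This list was assembled with earlier results of the data known, so it is not independent evidence.

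The background for noncoding features was as follows. With the 8 left out, 34 of 1302 tested LINC features were higher and 5 lower in senile than in infant cones by edgeR, of 3080 tested antisense features 19 were higher and 2 lower, and of the other 10527 features 1.23% were called. Their median log2 fold changes were 0.01 and -0.05, beside -0.01 for all features. The most abundant noncoding entry, LINC-FRMD8-1, which took 12.1% to 21.2% of all UMIs of a library, was lower in senile than in infant cones by -0.51 ± 0.11 (SE, edgeR adjusted p = 0.026). Of the nuclear noncoding RNAs of known role, MALAT1, NEAT1, MEG3, MIAT, RMST, TUG1 and SNHG11 were listed under none of these symbols.

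The features whose levels ran most alike to each of the 8 were sought over 134 sums of a retina and a class, by Pearson's r of log2(CPM + 1). These sums share retinas, libraries and depth, so r is a description. LINC-WSB1-16 and LINC-WSB1-17 were nearest to each other (r = 0.67), LINC-MAGEE1-4 was nearest to LINC-MAGEE1-2 (r = 0.69) and LINC-NCKAP5-6 to LINC-NCKAP5-5 (r = 0.74). RPL6-AS-45 was nearest to LINC-KLHL29-12 (r = 0.78), LINC-RPS6-38 to the zinc finger copy ZFP39li9 (r = 0.75), MUC16-AS-3 to LINC-VMN2R116-11 (r = 0.69) and LINC-STAU2-1 to GGH (r = 0.50). Between features of the set, the next highest values were 0.56 for LINC-RPS6-38 with MUC16-AS-3 and 0.55 for LINC-NCKAP5-6 with RPL6-AS-45.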

How the data were processed

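Per the labels and methods, nuclei of frozen TS retinas were sequenced with 10x Genomics 3′ libraries and counted with Cell Ranger on the TS genome TS_3.0. The submitters' processing notes name versions 5.0.1 and 7.0.1 and the file headers 6.1.2 (7 libraries) and 7.0.1 (8 libraries), whether intronic reads were counted is not given in the sources used here, and labels and methods name different kit versions. The deposited values are raw UMI counts per feature and barcode for 15 libraries, filtered by the authors' pipeline to 120437 barcodes. Nuclei were kept here within the study's limits, a gene number between 200 and 6000 and a mitochondrial share below 5% (119765). A nucleus entered a class when at least 2 class markers each had 1 or more UMIs and over 2 times the library share, and when any other class with 2 such markers scored below 25% of the best. This gave 63928 nuclei in 9 classes, set 4147 aside as mixed and left 51342 unassigned. No doublet caller was run. Gated sums of at least 10 nuclei were kept.

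UMIs were summed per retina and class. CPM is per 1000000 UMIs of that sum. SEs come from the log2 fold change and its F statistic. Stages were compared with edgeR 4.0.16 (filterByExpr, TMM, quasi-likelihood test, Benjamini-Hochberg adjustment over all features, threshold 0.05) over 15 retinas, and classes within the 5 mature retinas with the retina as a block. The study's methods used a per-nucleus model with sex as a term, and sex is not among the labels and was not used. Alternatives were DESeq2 1.42.0, no filter, a stricter gate of 3 markers, removal of the 5% of nuclei of highest UMIs, counts without LINC-FRMD8-1, the Cell Ranger version as a term, the replicate number as a block and leaving out each retina. In simulated data the cone stage fit found 36% of 2-fold and 90% of 4-fold changes with 10 false calls over 14442 features.

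The features and all lists were chosen with earlier results of these data known. All 8 are described in every stage and class, besides the coding genes and entries of the same name stems, noncoding features of known role and, for each feature, those with the highest correlation. The replicate numbers were not taken to pair retinas. None of the 8 matched the RefSeq gene table (TupChi_1.0), so no sequence or position is given. R 4.3.3 and Python 3.11.15 were used.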

Additional observations from a re-analysis of the deposited data

Results flagged for a closer look

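LINC-MAGEE1-4 in ACs of Infancy 5 stood apart from the other infant retinas, at 455 CPM against 315 to 333 CPM. LINC-WSB1-17 in ACs of Infancy 4 was likewise apart, at 30.8 CPM against 4.69 to 11.7 CPM. These were 2 of 53 groups of 5 retinas examined with Dixon's criterion, which by chance marks about 1 in 20.

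For 3 features the cones of every retina lay on one side of another class at 1 stage and on the opposite side at another, a difference that was not tested because the choice of features rests on the same retinas. In log2(CPM + 1), cones minus BCs of the same retina averaged -2.05 ± 0.29 for LINC-WSB1-16 in infancy, 1.98 ± 1.14 at the mature stage and 2.10 ± 0.93 in senility (SD, n = 5). For LINC-WSB1-17 it was -1.30 ± 0.30 in infancy and 1.74 ± 1.01 in senility. Cones minus RGCs were -1.70 ± 0.64 and 2.90 ± 0.67 for LINC-WSB1-16 and -1.30 ± 0.59 and 2.60 ± 0.60 for LINC-WSB1-17 at these stages. Cones minus ACs were 0.35 ± 0.17 for LINC-MAGEE1-4 in infancy and -3.14 ± 0.76 in senility.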

How the results depend on the processing

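Counts of called features moved by over 1.5 times in these cases. DESeq2 called 283 (mature to infant cones), 333 (senile to infant), 11 (senile to mature) and 400 (L- to S-cones) features, where edgeR called 165, 196, 0 and 704. Without a filter edgeR called 346 between senile and infant and 7 between senile and mature cones, and 13786, 15569 and 14920 between mature cones and BCs, ACs and RGCs, where it had called 8669, 9409 and 9343. With the Cell Ranger version as a term, 1 feature was called between senile and mature cones. The L- to S-cone contrast gave 402 calls under the stricter gate and 246 without the retina as a replicate block. With the replicate number as a block, 226, 167 and 0 features were called between senile and infant, mature and infant, and senile and mature cones, changing no count by over 1.5 times, and 7, 5 and 0 of the 8 features were among them. Deviations from the stage means in cones correlated at -0.33 to 0.41 over 15 pairs of same-numbered retinas (median 0.25) and at -0.53 to 0.63 over 60 other pairs (median -0.15). As not every same-numbered pair was over 0.1, the numbers were not taken as pairs. Leaving out each retina gave 169 to 216, 112 to 171 and 0 calls in those contrasts, and 508 to 688 between L- and S-cones. The L- to S-cone fit without Mature 5 was not run, as that retina was not in it. The causes were not tested, except that fewer features or samples enter some fits.

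No called value of the 8 features changed sign. Among values with no call, 11 did, such as LINC-WSB1-16 in mature cones against ACs without Mature 3 (0.13, against -0.29) and, between senile and infant retinas under the stricter gate, LINC-WSB1-17 in BCs (-0.09, against 0.63) and in Müller cells (-0.21, against 0.77). Of the class values that passed the filter on low counts, 273 kept their side of the threshold under an alternative, 7 fell short of it and 2 passed it. The latter were both LINC-STAU2-1 against ACs (DESeq2, adjusted p = 0.011, and without Mature 1, adjusted p = 0.031). These counts include LINC-RPS6-38 against BCs and rods, LINC-WSB1-16 against rods and Müller cells and RPL6-AS-45 between L- and S-cones, which are given as descriptions above. Of the losses, 2 were RPL6-AS-45 between L- and S-cones. Besides those named with the results, the others were LINC-STAU2-1 against BCs (adjusted p = 0.15) and LINC-RPS6-38 against Müller cells (adjusted p = 0.096) without the retina as a block. Of the stage values in cones, 8 of 528 moved by over 1 SD, 7 of them without Infancy 2 or Infancy 4 and 1 under the stricter gate, and the largest move was that of LINC-WSB1-17 without Infancy 4. In BCs, ACs, RGCs and Müller cells, 5 of 96 moved, under alternatives chosen after seeing the data. The depth limits the 4 features at 3 to 45 UMIs in infant cones.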
